A study of Mus musculus with 6 samples.

Results

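The study listed genes as different between livers of Usp28 knockout and wild-type mice. Of these, 60 stayed within a 1.6-fold range over the libraries of each genotype, and these 60 are described here. They were chosen by their FPKM values (fragments scaled to transcript length and library size, so that levels can be set beside each other). A gene was kept if its FPKM was at least 0.5 in every library of the group with the higher mean, and if the highest FPKM was at most 1.6 times the lowest within the 3 wild-type libraries and also within the 3 knockout libraries. Of the 389 listed genes, 70 were within the limit of 1.6 in both groups, 2 of these were below the FPKM minimum, and 8 were left out by name (Cidec, Fitm2, Gamt, Ppp1r3b, Cyp4f14, Ppara, Zfp982 and Zfp119b). The remaining 60 are 15.4% of the list.

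Bulk liver RNA was sequenced from 3 libraries of mice with a whole-body deletion of Usp28 and 3 libraries of wild-type mice. All 6 came from mice that had eaten a methionine- and choline-deficient diet for 4 weeks from the age of 8 weeks, so no library comes from a normal diet. The labels name no strain or sex, and nothing in them says whether the 3 libraries of a group came from separate animals. In bulk liver, fewer cells of a type and less RNA per cell cannot be told apart.

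The USP28 protein takes ubiquitin off its target proteins and so spares some of them from degradation. A diet without methionine and choline limits the making of phosphatidylcholine, which hepatocytes need to export fat in lipoproteins, and it leads to fatty, inflamed liver. Hepatocytes also make much of the secreted protein of the blood, store glycogen, and take up and rebuild fatty acids at the endoplasmic reticulum (ER). Many of the genes below act in these routes.

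Neither Usp28 nor Pparg is among the 389 genes, so the deletion itself was not checked here. The libraries held 20350000 to 24160000 reads, as recovered from the counts, FPKM and transcript lengths. Wild-type replicate 3 stood apart over the listed genes: they took 5.45% of its reads, against 8.74% and 8.81% in the other wild-type libraries and 3.73% to 3.77% in the knockout libraries. Of 25 markers of monocytes and recruited macrophages, 6 were among the listed genes (Itgam, Itgax, Cd14, Mmp12, Gpnmb and Lgals3). They summed to 67.1, 30.8 and 168 FPKM in wild-type replicates 1, 2 and 3, and to 28.9, 23.5 and 20.7 FPKM in the knockout libraries. None of those 6 genes met the limits, and no marker on the fixed lists for Kupffer cells, neutrophils, lymphocytes, red blood cells or liver endothelium was among the 389 genes. The 1 listed stellate cell and fibroblast marker of 23, Timp1, measured 0.45, 0.33 and 3.55 FPKM in wild-type replicates 1 to 3 and at most 0.26 FPKM in the knockout. The 1 listed cholangiocyte marker of 14, Cldn4, measured 0.41, 0.16 and 3.25 FPKM in the wild type and at most 0.10 FPKM in the knockout. All of these values were highest in wild-type replicate 3. Most markers of each list were not among the 389 genes, so their levels are not known here. The part of these differences in the values below was not tested.

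Within the 60 genes, 39 were lower and 21 were higher in the knockout libraries. That is 65.0% lower, beside 59.9% (233 of 389) over the whole list. The FPKM ranges of the 2 genotypes did not overlap in 60 of 60 genes. They also did not overlap in 93.3% of all listed genes, and since the table was selected on this contrast and the limits keep each group narrow, nothing is read from that count. No test is given for any gene, because the values that chose the genes are the values a test would use. Fold differences below are ratios of mean FPKM. The log2 fold changes (knockout over wild type) come from a count model fitted over all 389 genes, with its standard error (SE), and are written beside the folds as log2 values.

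**Figure D1:**
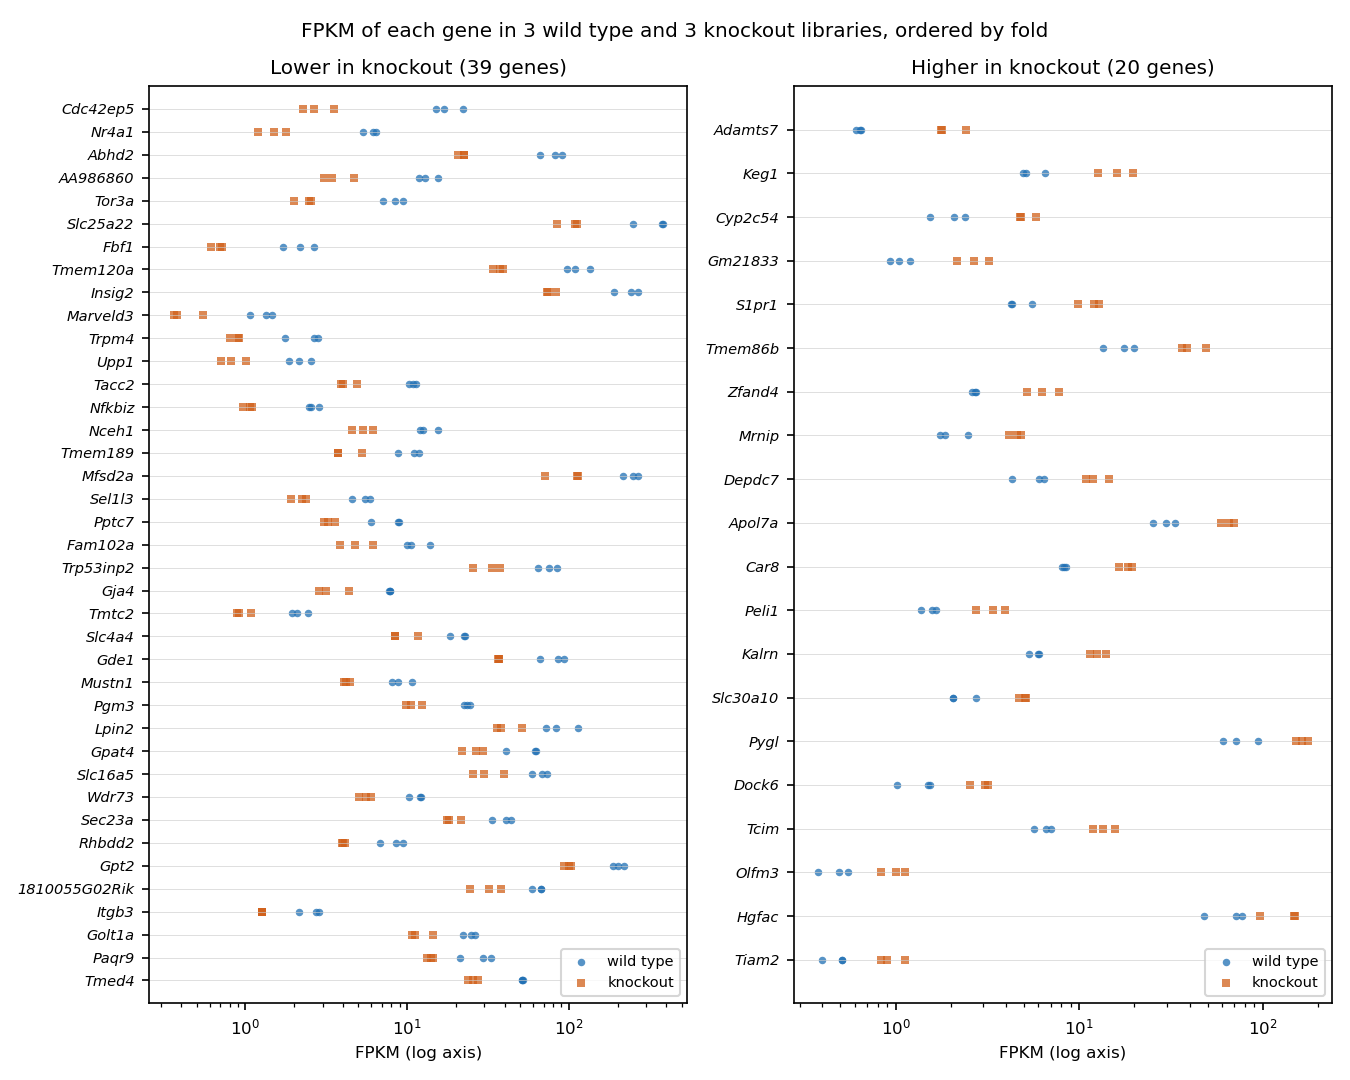
FPKM (log axis) of 59 of the 60 genes in the 3 wild-type libraries (blue circles) and the 3 knockout libraries (orange squares), for the 39 genes lower and 20 of the 21 genes higher in the knockout, ordered by fold. Each gene shows 2 separate clusters of points; the widest step is that of Cdc42ep5 (6.42-fold) and the narrowest gap is that of Hgfac (1.26-fold between its nearest libraries).

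The differences were mostly modest, above a floor that the whole list shared: the smallest defined fold of any listed gene was 2.01. The median fold was 2.33 among the lower genes (range 2.01 to 6.42) and 2.20 among the higher genes (2.01 to 3.14), beside 2.84 and 2.54 among the other 192 lower and 135 higher listed genes with a defined fold (2 more were listed at 0 in every knockout library). A fold of 3 or more was seen in 10 of the 60 genes (16.7%), 9 of them lower and 1 higher, and in 134 of the other 327 with a defined fold (41.0%). A fold under 2.5 was seen in 42 of the 60. The matching share of the other listed genes was not counted. The median fold over all listed genes was 2.57. The table was selected on this contrast. Whether the smaller folds of the 60 follow from that selection was not tested. The nearest libraries of the 2 genotypes were apart by a median of 1.78-fold. The levels ranged widely: 8 genes had a mean of 100 FPKM or more in their higher group, and 15 had a mean under 5 FPKM.

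Just inside the limit were Fam102a (largest spread 1.594), Hgfac (1.595) and Trpm4, which lies on it (1.6). The 3 just outside were Sdr9c7 (1.602), Paqr3 (1.603) and Kirrel (1.609). The limit therefore falls within a continuous run of spreads. In the wild type 101 of the 389 listed genes (26.0%) were within it, and in the knockout 262 (67.4%). Among the 60 genes the knockout libraries were the tighter group in 31 (51.7%), and among the other 324 with a defined spread in 269 (83.0%). The rule used these spreads, so the contrast between the sets is a description of the choice.

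**Figure D2:**
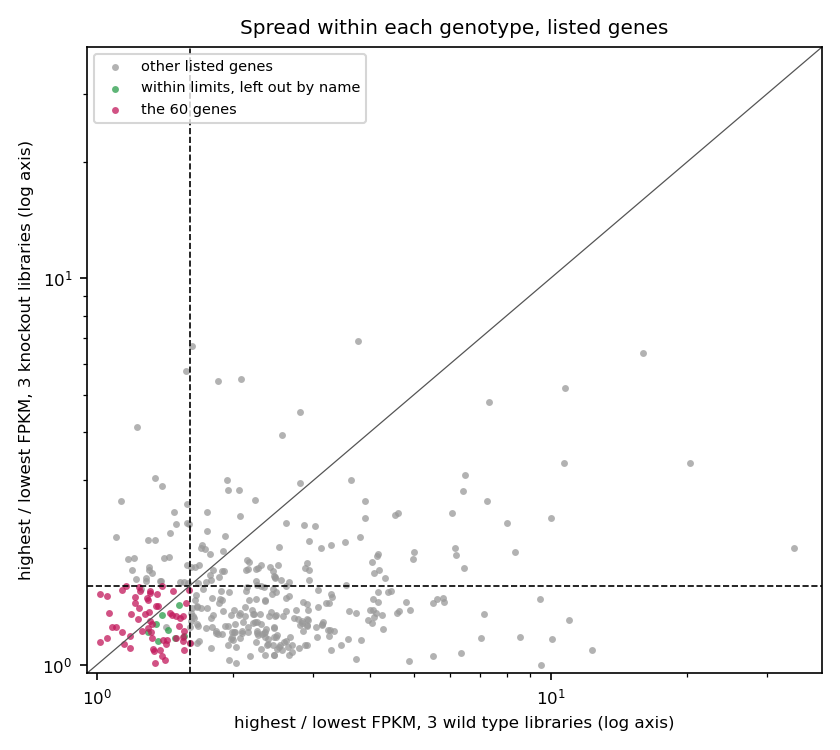
Highest over lowest FPKM within the 3 wild-type libraries (x, log axis) against the same within the 3 knockout libraries (y, log axis) for 384 listed genes, 5 with an FPKM of 0 in a library being undefined; dashed lines mark 1.6, and the diagonal marks equal spread. The 60 genes fill the lower left corner by construction, and most other genes lie to the right of it, below the diagonal.

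Lipid genes formed the largest named group: 12 of the 60, with 9 lower and 3 higher in the knockout. This and the other groupings by role were made after the values were seen, and they carry no test. By the deposited annotation, lipid metabolic process held 8 of the 60 genes (13.3%) and 41 of the other 329 (12.5%), shares that are close. The lower ones act in glycerolipid and sterol handling at the ER and in the hydrolysis and uptake of lipids. Abhd2, an alpha/beta hydrolase that can cleave monoacylglycerol (gene at chr7:79273199-79365508, GRCm38, GENCODE M21 annotation), measured 91.1, 81.7 and 66.1 FPKM in wild-type replicates 1 to 3 and 20.6, 22.4 and 22.5 FPKM in knockout replicates 1 to 3. The lowest wild-type library was thus far above the highest knockout library, and the fold was 3.65 (log2 fold change of -1.87 ± 0.30). It was the largest difference of the lipid genes.

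Insig2 encodes an ER membrane protein that holds the SCAP-SREBP complex back and so restrains sterol and fatty acid synthesis. It is expressed highly in liver, and here it measured 241, 269 and 189 FPKM in the wild type and 74.5, 73.1 and 82.8 FPKM in the knockout, a 3.03-fold lower level (log2 -1.50 ± 0.31). It was the only gene within the limits among the 12 listed genes of the cholesterol and bile acid list, and none of the 9 listed genes of fatty acid synthesis was within them. Tmem120a, a membrane protein of the nuclear envelope and ER linked to fat cell differentiation, measured 109, 135 and 96.8 FPKM in the wild type and 39.1, 33.8 and 37.5 FPKM in the knockout (3.09-fold lower, log2 -1.63 ± 0.29). For both genes wild-type replicate 2 was the highest library and replicate 3 the lowest of the wild type, while the knockout libraries were almost level.

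Gpat4 and Lpin2 encode enzymes of triglyceride synthesis, the ER acyltransferase that starts it from glycerol 3-phosphate and a phosphatidate phosphatase that yields diacylglycerol. Gpat4 measured 62.8, 62.1 and 40.7 FPKM in the wild type and 22.0, 26.8 and 29.4 FPKM in the knockout (2.12-fold lower, log2 -1.07 ± 0.30). Lpin2 measured 114, 72.2 and 83.0 FPKM in the wild type against 38.0, 51.6 and 35.7 FPKM in the knockout (2.15-fold lower, log2 -1.0 ± 0.32). Each had a wild-type spread near the limit, with replicate 3 lowest for Gpat4 and replicate 1 highest for Lpin2. The list of lipid droplet and triglyceride genes had 4 of its 11 listed genes within the limits, these 2 and the left-out Cidec and Fitm2. The list of fatty acid oxidation and PPARA targets had 1 of 24, Ppara, which was left out by name. These are 36.4% and 4.17%, beside 17.5% over all listed genes.

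Mfsd2a, a sodium-dependent carrier that brings lysophosphatidylcholine into cells, was among the most abundant of the lower genes. It measured 251, 269 and 217 FPKM in the wild type and 71.5, 112 and 114 FPKM in the knockout (2.48-fold lower, log2 -1.28 ± 0.32), and knockout replicate 1 lay well below the other knockout libraries. Nceh1, a cholesterol ester hydrolase, was 2.49-fold lower, and Gde1, a glycerophosphodiester phosphodiesterase, was 2.22-fold lower with knockout values of 37.1, 37.2 and 36.2 FPKM. Genes for the making and breaking of plasmalogens, the vinyl ether phospholipids, stood on opposite sides. Tmem189, the desaturase that forms the vinyl ether bond, measured 11, 11.9 and 8.78 FPKM in the wild type and 3.73, 3.74 and 5.29 FPKM in the knockout (2.48-fold lower). Tmem86b, a lysoplasmalogenase that breaks the bond, measured 13.6, 19.8 and 17.6 FPKM in the wild type and 48.8, 36.4 and 38.4 FPKM in the knockout (2.42-fold higher, log2 1.24 ± 0.30).

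Cyp2c54, a cytochrome P450 that epoxidizes fatty acids, measured 2.07, 2.40 and 1.54 FPKM in the wild type against 4.84, 5.83 and 4.78 FPKM in the knockout (2.57-fold higher, log2 1.36 ± 0.32). Its reads are uncertain because mouse Cyp2c genes are close copies of each other.

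Among 7 genes of mitochondrial, amino acid, nucleotide and sugar metabolism, 5 were lower and 2 higher. Slc25a22, a carrier of glutamate across the inner mitochondrial membrane (chr7:141429744-141437892), had the highest level of all the lower genes, with 376, 381 and 250.3 FPKM in the wild type and 84.7, 109 and 112 FPKM in the knockout (3.29-fold lower, log2 -1.66 ± 0.33). Gpt2, the mitochondrial alanine aminotransferase that joins alanine to glutamate and pyruvate, measured 201, 186 and 220.1 FPKM in the wild type against 104, 93.8 and 99.8 FPKM in the knockout (2.04-fold lower, log2 -1.03 ± 0.30). Both genes make or move glutamate, and they differed in tightness: wild-type replicate 3 was the lowest for Slc25a22 and the highest for Gpt2, whose spread was 1.18 in the wild type and 1.10 in the knockout. The other lower genes of the group were Pptc7, a mitochondrial phosphatase (2.41-fold), Upp1, a uridine phosphorylase (2.58-fold), and Pgm3, an enzyme of UDP-N-acetylglucosamine synthesis (2.15-fold).

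On the higher side of that group was Pygl, the liver glycogen phosphorylase that releases glucose units from glycogen. It measured 60.9, 71.3 and 94.3 FPKM in the wild type and 152, 175 and 163 FPKM in the knockout (2.17-fold higher, log2 1.12 ± 0.31), with wild-type replicate 3 nearest to the knockout. Keg1, a relative of glycine N-acyltransferase, measured 5.12, 4.97 and 6.49 FPKM in the wild type against 16.1, 12.6 and 19.6 FPKM in the knockout (2.91-fold higher, log2 1.58 ± 0.31). It has close relatives beside it in the genome, so its reads are uncertain too. Of the 7 listed genes on the amino acid and one-carbon list, Gpt2 and the left-out Gamt were within the limits, beside 17.5% of all listed genes.

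All 5 genes of the secretory pathway were lower. Sec23a, a coat component of the COPII vesicles that leave the ER, measured 40.6, 33.3 and 43.7 FPKM in the wild type and 17.6, 21.4 and 18.2 FPKM in the knockout (2.05-fold, log2 -0.97 ± 0.28). Tmed4, a cargo receptor of the early secretory pathway, measured 51.45, 51.81 and 51.13 FPKM in the wild type against 23.8, 27.3 and 25.6 FPKM in the knockout (2.01-fold, log2 -1.01 ± 0.27). Its 3 wild-type values are nearly identical, with a variance below that of read counting alone. Golt1a, a Golgi transport protein, was 2.02-fold lower, and Tmtc2, an ER protein that adds mannose to cadherins, was 2.23-fold lower. The largest difference of the group was that of Tor3a, a torsin ATPase of the ER, with 8.37, 9.44 and 7.13 FPKM in the wild type and 1.99, 2.46 and 2.54 FPKM in the knockout (3.57-fold lower, log2 -1.60 ± 0.28). By read counts alone its fold was 3.03.

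The deposited annotation placed 13 of the 60 genes (21.7%) in the ER, 12 lower and 1 higher, and 38 of the other 329 (11.6%). It placed 8 (13.3%) in the Golgi apparatus beside 19 of the others (5.78%), and 5 (8.33%) in the mitochondrion beside 44 (13.4%). The 5 genes annotated to the extracellular region, among them Hgfac, Adamts7, Apol7a and Olfm3, were all higher; they are 8.33% of the 60, beside 38 of the others (11.6%). The extracellular space held 4 genes (6.67%), 3 higher and 1 lower (Gpt2), beside 35 of the others (10.6%). These terms were picked after the values were seen, and the shares are given as descriptions. Of the 60, 65.0% were lower in any case. The directions of the other listed genes under these terms were not counted, and nothing is read from the directions. No KEGG pathway was given for 39 of the 60 (65.0%) and for 139 of the others (42.2%), and 48 of the 60 were on none of the 23 gene lists used here.

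Of 6 genes for ion transport and cell junctions, 5 were lower. Slc4a4, a sodium bicarbonate cotransporter, measured 22.7, 22.4 and 18.3 FPKM in the wild type and 8.36, 11.7 and 8.45 FPKM in the knockout (2.22-fold lower). Slc16a5, of the monocarboxylate transporter family, was 2.11-fold lower. With Slc25a22 and Mfsd2a these make up the 4 genes annotated as symporters, and all 4 were lower. They are 6.67% of the 60, beside 3 of the other 329 genes (0.91%), and 65.0% of the 60 were lower in any case. The term was picked after the values were seen, and nothing is read from the count. Trpm4, a calcium-activated cation channel, measured 2.80, 2.64 and 1.75 FPKM in the wild type against 0.90, 0.80 and 0.91 FPKM in the knockout. Its FPKM fold was 2.75 and its log2 fold change was -1.86 ± 0.37, a gap described with transcript length below. Marveld3, a tight junction protein, measured 1.45, 1.07 and 1.34 FPKM in the wild type against 0.38, 0.36 and 0.55 FPKM in the knockout (2.99-fold lower, log2 -1.70 ± 0.43), near the lowest levels of the set. Gja4, a gap junction connexin known from arterial endothelium, measured 7.78, 7.84 and 7.73 FPKM in the wild type against 2.85, 4.34 and 3.15 FPKM in the knockout (2.26-fold lower), with level wild-type libraries and knockout replicate 2 above the other knockout libraries. Slc30a10, which exports manganese from cells into bile, was the one on the higher side, with 2.05, 2.06 and 2.73 FPKM in the wild type and 5.15, 5.10 and 4.70 FPKM in the knockout (2.19-fold, log2 1.13 ± 0.28).

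Regulators of small GTPases, the cytoskeleton and the cilium split 3 and 3. Cdc42ep5, an effector protein of the GTPase CDC42 (chr7:4151260-4164860), showed the largest difference of the 60 genes. It measured 15.1, 17.0 and 22.3 FPKM in wild-type replicates 1 to 3 and 2.67, 3.53 and 2.28 FPKM in knockout replicates 1 to 3 (6.42-fold lower, log2 -2.65 ± 0.33). Its lowest wild-type library was 4.29 times its highest knockout library, and wild-type replicate 3 was the one farthest from the knockout. In the authors' deposited table it had the fourth smallest p-value of the listed genes. Fbf1, a protein of the ciliary transition fibres, measured 2.16, 1.71 and 2.65 FPKM in the wild type against 0.70, 0.72 and 0.61 FPKM in the knockout (3.21-fold lower, log2 -1.56 ± 0.32). Tacc2, a centrosome and microtubule protein, measured 11.4, 10.9 and 10.3 FPKM in the wild type against 4.01, 4.89 and 3.91 FPKM in the knockout (2.55-fold lower, log2 -1.45 ± 0.28), with both groups tight.

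The 3 higher genes of this group, Kalrn, Dock6 and Tiam2, all encode exchange factors that load Rac family GTPases with GTP. The annotation of exchange factor activity held these 3 of the 60 (5.0%) and 3 of the other 329 (0.91%). It too was picked after the values were seen. Kalrn measured 6.06, 5.33 and 6.0 FPKM in the wild type and 14.0, 11.5 and 12.5 FPKM in the knockout (2.19-fold, log2 1.09 ± 0.28). Dock6 measured 1.02, 1.55 and 1.51 FPKM in the wild type against 3.18, 2.53 and 3.08 FPKM in the knockout (2.15-fold). Tiam2 was near 1 FPKM or below in each library, with 0.40, 0.51 and 0.51 FPKM in the wild type against 1.12, 0.83 and 0.90 FPKM in the knockout (2.01-fold). Angptl8, itself listed and higher in the knockout, lies on the opposite strand inside Dock6, and measured 91.6, 126 and 71.0 FPKM in the wild type and 161, 311 and 247 FPKM in the knockout. Whether the counting used strand is not given in the sources used here, and the part of Angptl8 reads in the Dock6 count was not tested.

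Signalling, transcription and proteolysis took 10 genes, 4 lower and 6 higher. Nr4a1, an orphan nuclear receptor that acts as an immediate early gene and induces hepatic glucose production genes (chr15:101254269-101274795), had the next largest difference after Cdc42ep5. It measured 6.18, 5.31 and 6.44 FPKM in the wild type and 1.51, 1.19 and 1.78 FPKM in the knockout (4.00-fold lower, log2 -1.95 ± 0.31). Nfkbiz, an atypical inhibitor of NF-kappa-B that works in the nucleus, was the tightest of the 60: 2.84, 2.56 and 2.48 FPKM in the wild type against 1.10, 1.06 and 0.97 FPKM in the knockout (2.52-fold lower, log2 -1.33 ± 0.30). Trp53inp2, which takes part in autophagosome formation, measured 84.0, 75.6 and 64.8 FPKM in the wild type against 25.6, 33.4 and 37.8 FPKM in the knockout (2.32-fold lower, log2 -1.14 ± 0.30). It was the only gene within the limits of 12 listed on the stress response list, beside 17.5% of all listed genes. Itgb3, the integrin beta 3 chain, was 2.03-fold lower with 1.27, 1.27 and 1.26 FPKM in the knockout libraries.

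The higher genes of the group were a receptor, a ubiquitin ligase, proteases and small regulators. S1pr1, a receptor for sphingosine 1-phosphate that is abundant on endothelium and lymphocytes, measured 4.30, 4.24 and 5.55 FPKM in the wild type and 12.9, 12.1 and 9.91 FPKM in the knockout (2.47-fold, log2 1.31 ± 0.29). S1pr1 and Gja4 are both known from endothelium, and they stood on opposite sides. No gene of the liver endothelial list was among the listed genes, so their levels are not known here. Adamts7, a secreted metalloprotease, measured 0.64, 0.65 and 0.61 FPKM in the wild type against 1.78, 2.41 and 1.77 FPKM in the knockout (3.14-fold, log2 1.63 ± 0.31) and was the only higher gene with a fold of 3 or more. Hgfac, the serine protease that activates hepatocyte growth factor, measured 48.1, 71.4 and 76.7 FPKM in the wild type against 96.3, 147 and 150.4 FPKM in the knockout (2.01-fold, log2 0.91 ± 0.32). In both genotypes replicate 1 was its lowest library, and the gap between the nearest libraries was the smallest of the set.

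Peli1, a ubiquitin ligase of innate immune signalling, measured 1.66, 1.37 and 1.57 FPKM in the wild type and 3.94, 3.41 and 2.73 FPKM in the knockout (2.19-fold higher). It was the only gene within the limits of 4 listed on the ubiquitin system list, beside 17.5% of all listed genes. Car8, a carbonic anhydrase relative without the enzyme's activity, was the tightest of the higher genes, with 8.24, 8.08 and 8.52 FPKM in the wild type against 19.4, 18.6 and 16.6 FPKM in the knockout (2.20-fold, log2 1.14 ± 0.27). Tcim, a short protein that promotes Wnt signalling, measured 5.71, 7.04 and 6.59 FPKM in the wild type against 15.7, 11.9 and 13.4 FPKM in the knockout (2.12-fold).

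The promoters of the genes were read for short motifs on both strands. Promoters from 250 bases before to 50 after the start were taken from RefSeq (GRCm38.p6) and matched 43 of the 60 genes, 29 lower and 14 higher. CCAAT, the box bound by NF-Y, was present in 18 of 29 lower genes (62.1%) and 4 of 14 higher genes (28.6%), beside 45.6% of the other lower and 50% of the other higher listed genes and 41.1% of all 27025 genes with a promoter. GGGCGG, the GC box, was in 20 of 29 (69.0%) and 8 of 14 (57.1%), beside 67.3% of the other lower, 45.1% of the other higher and 38.2% of all genes. TGACG, the core of the cyclic AMP response element, was in 10 of 29 (34.5%) and 2 of 14 (14.3%), beside 33.3%, 21.6% and 23.0% in the same order. For both motifs the lower genes of the set were close to the other lower genes. AGGTCA, the core of nuclear receptor sites, was in 4 of 29 (13.8%) and 2 of 14 (14.3%), beside 22.4%, 18.6% and 18.1%. TATAAA, the TATA box, was in none of 29 lower genes and in 1 of 14 higher genes (Zfand4), beside 10.9%, 10.8% and 15.7%. CACGTG, the E-box, was in 2 of 29 and 1 of 14, beside 11.6%, 11.8% and 8.09%. The longer TGACGTCA was in 1 lower gene, beside 3.40%, 0.98% and 2.03%, and AAAGGTCA, an element that NR4A receptors can bind, was in none of the 43, beside 2.72%, 0.98% and 1.70%. An observed over expected CpG ratio of 0.6 or more was found in 20 of 29 lower (69.0%) and 6 of 14 higher genes (42.9%), beside 55.1% of the other lower and 46.1% of the other higher listed genes. All shares are per gene: a gene with several promoter entries counts as holding a motif if any entry does, and a match is a run of letters and not a bound site.

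The 250 bases upstream of the start are printed 5′ to 3′ on the gene's strand for 4 genes that each have a single promoter entry. Nr4a1 is shown for its large difference, Trp53inp2 as the only one of the 43 with the full cyclic AMP element TGACGTCA, Mfsd2a as an abundant lower gene with few matches, and Pygl as an abundant higher gene. Capitals mark matches to any of the 6 short motifs on either strand, where overlapping matches run together. The regions are chr15:101266596-101266845 for Nr4a1, chr2:155381606-155381855 for Trp53inp2, chr4:122961189-122961438 for Mfsd2a and chr12:70227684-70227933 for Pygl.
Nr4a1: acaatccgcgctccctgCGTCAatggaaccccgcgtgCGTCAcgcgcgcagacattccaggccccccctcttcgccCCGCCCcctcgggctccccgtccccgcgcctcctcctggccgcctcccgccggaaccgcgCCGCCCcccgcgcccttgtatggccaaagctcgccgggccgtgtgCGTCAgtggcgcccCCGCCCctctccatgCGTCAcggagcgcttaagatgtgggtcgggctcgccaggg
Trp53inp2: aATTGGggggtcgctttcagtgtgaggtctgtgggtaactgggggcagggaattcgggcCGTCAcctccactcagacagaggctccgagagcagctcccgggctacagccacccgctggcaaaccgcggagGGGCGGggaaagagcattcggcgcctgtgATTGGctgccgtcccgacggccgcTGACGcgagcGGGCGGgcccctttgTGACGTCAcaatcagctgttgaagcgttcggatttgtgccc
Mfsd2a: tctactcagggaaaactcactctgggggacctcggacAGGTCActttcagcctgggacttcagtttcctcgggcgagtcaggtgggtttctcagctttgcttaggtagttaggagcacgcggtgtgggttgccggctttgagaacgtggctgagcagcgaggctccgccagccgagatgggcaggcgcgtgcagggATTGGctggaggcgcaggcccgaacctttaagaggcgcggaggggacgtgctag
Pygl: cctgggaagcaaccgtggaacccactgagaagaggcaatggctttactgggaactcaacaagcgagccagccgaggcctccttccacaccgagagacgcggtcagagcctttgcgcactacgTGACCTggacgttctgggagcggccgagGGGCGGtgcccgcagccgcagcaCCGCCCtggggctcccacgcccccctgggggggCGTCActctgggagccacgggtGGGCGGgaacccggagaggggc
Nr4a1 carried 4 TGACG and 3 GGGCGG matches, all on the reverse strand. Trp53inp2 carried 4 TGACG matches, 2 of which form the full element, with 2 GGGCGG and 2 CCAAT matches. Mfsd2a carried 1 CCAAT and 1 AGGTCA match, and Pygl carried 3 GGGCGG, 1 TGACG and 1 AGGTCA match.

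The last 14 genes have less settled roles, and 8 were lower and 6 higher. The largest difference among them was that of AA986860, with 15.4, 11.8 and 12.9 FPKM in the wild type and 3.41, 3.06 and 4.68 FPKM in the knockout (3.6-fold lower, log2 -1.85 ± 0.31). Wdr73, a WD repeat protein, was one of the tightest, with 10.3, 12.2 and 12 FPKM in the wild type against 5.6, 6.01 and 5.05 FPKM in the knockout (2.07-fold lower, log2 -0.86 ± 0.27). The other 6 lower genes were Fam102a, Mustn1, 1810055G02Rik, Paqr9, Sel1l3 and Rhbdd2, with folds from 2.01 to 2.43. On the higher side Apol7a, an apolipoprotein L family gene with close relatives, measured 33.3, 25.1 and 29.7 FPKM in the wild type against 65.1, 69.8 and 59.4 FPKM in the knockout (2.20-fold, log2 1.13 ± 0.28). Zfand4 measured 2.71, 2.61 and 2.75 FPKM in the wild type against 6.24, 7.79 and 5.18 FPKM in the knockout (2.38-fold, log2 1.16 ± 0.29), the wild type being level and the knockout wider. Gm21833 measured 1.05, 0.93 and 1.20 FPKM in the wild type against 2.16, 2.68 and 3.21 FPKM in the knockout (2.53-fold, log2 1.35 ± 0.38). Depdc7 measured 6.08, 4.32 and 6.44 FPKM in the wild type against 14.5, 10.8 and 11.8 FPKM in the knockout (2.20-fold, log2 1.14 ± 0.30). Mrnip, a DNA repair protein, measured 2.48, 1.74 and 1.85 FPKM in the wild type against 4.60, 4.83 and 4.17 FPKM in the knockout (2.24-fold, log2 1.14 ± 0.35), and Olfm3 was 2.09-fold higher.

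The order of the libraries within a genotype was not part of the rule. Wild-type replicate 3 was the lowest wild-type library in 25 of the 39 lower genes (64.1%) and in 96 of the other 194 lower genes (49.5%). Its median deviation from the wild-type mean was -0.12 on the log2 scale in the former and -0.21 in the latter. In the higher genes it was the highest wild-type library in 11 of 21 (52.4%) and in 106 of the other 135 (78.5%), with median deviations of 0.08 and 0.64. The shift of that library toward the knockout level was thus present in the 39 lower genes at small size, and in the 21 higher genes it was far below that of the other higher genes, as a narrow limit on the wild type requires. In the knockout, replicate 1 was lowest in 17 of the 39 lower genes (43.6%) and in 92 of the other 194 (47.4%). It was highest in 11 of the 21 higher genes (52.4%) and in 52 of the other 135 (38.5%).

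**Figure D3:**
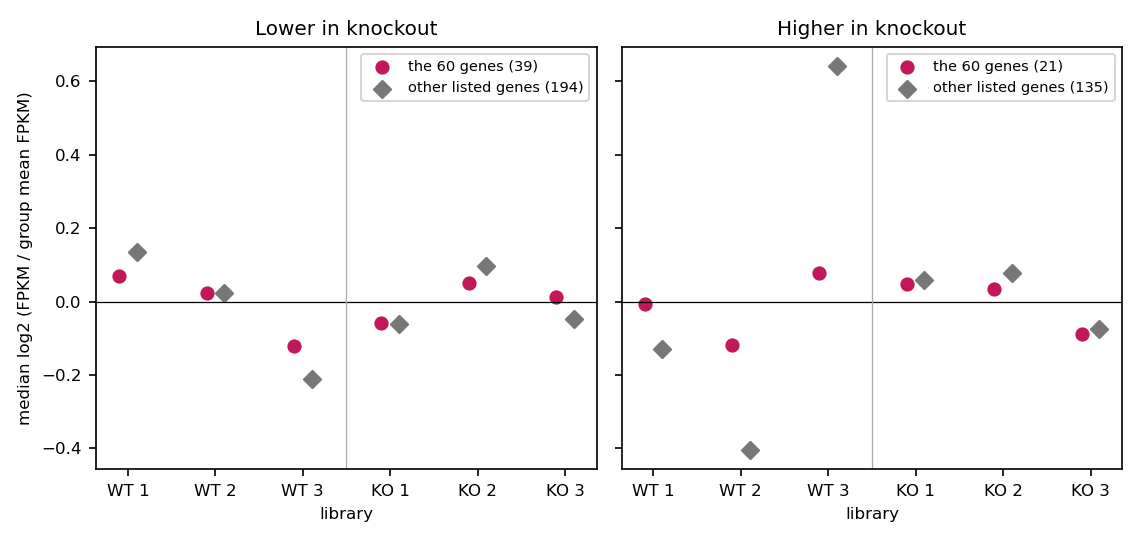
Median log2 ratio of a library's FPKM to its group mean (y) for each of the 6 libraries (x), for genes lower (left) and higher (right) in the knockout; pink circles are the 60 genes and grey diamonds the other listed genes, with the number of genes in parentheses. Wild-type replicate 3 reaches 0.64 in the other higher genes and 0.08 in the 21 higher genes of the set.

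Without wild-type replicate 3, 180 genes met the limits, and without any other single library 73 to 98 did, so that library sets much of the size of the group. With that library the median log2 fold change was -1.17 for the lower and 1.14 for the higher genes of the 60. Without it the medians were -1.25 and 1.21. The FPKM ranges of the genotypes did not overlap in any of the 60, so leaving out 1 library could not reverse the order of their means. Nothing is read from the kept direction.

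The spread within a genotype can also be set against the noise of read counting. Among the 60 genes, the variance of the counts was at or below that noise for 6 in the wild type and for 10 in the knockout. Such genes were not counted among the other listed genes, so nothing is read from these counts. The median ratio of variance to counting noise was 9.32 in the wild type and 7.27 in the knockout for the 60 genes, beside 44.2 and 7.95 for the other listed genes. The count model's SE, which borrows spread from all listed genes, had a median of 0.30 for the 60 genes, and the SE from each gene's own 6 FPKM values had a median of 0.18. For the other genes these were 0.41 and 0.42. The rule chose the 60 genes for small spreads, so these gaps between the sets are set by the choice and nothing is read from them. In the authors' deposited table, 31 of the 60 genes were among the 100 listed genes with the smallest p-values, and their median rank was 97.5 beside 216 for the others. A small spread lowers a p-value, so the choice of the genes favours such ranks.

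FPKM divides a count by a transcript length, and the length that the deposited counts, depth and FPKM imply can be read for each library. For the 9 genes with a single annotated transcript it was level, as in Gja4, where it ran from 1682 to 1688 bases over the 6 libraries. Depth was recovered from genes with a single transcript, Gja4 among them, so this is largely built in. Among genes with several annotated transcripts it was level in some and moved in others. In Pygl, with 6 transcripts, it ran from 2825 to 2826 bases over the libraries, and in Upp1, with 9, from 761 to 1283. The levels of single transcripts were not measured, so whether their mix moved the length was not tested. Implied lengths were called different if they differed by 0.1 or more on the log2 scale without overlap between the genotypes. Of the 57 genes at 0.5 FPKM or more in every library, 3 (5.26%) were called. Of all 288 listed genes at that level, 10 (3.47%) were called. These shares are close, and nothing is read from the count. Tor3a implied 2475, 2420.3 and 2433 bases in the wild type and 3276, 2792 and 2634 bases in the knockout. Pptc7 implied 4158, 3825 and 3733 bases in the wild type and 4632, 4366 and 4568 bases in the knockout. Wdr73 implied 1877, 1703 and 1865 bases in the wild type and 2114, 1985 and 2115 bases in the knockout. In these 3 genes the knockout libraries had the longer implied transcript, so the fold by counts was smaller than the fold by FPKM (3.03 beside 3.57 for Tor3a, 1.82 beside 2.07 for Wdr73).

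Trpm4 went the other way with overlap. Its implied length was 3524, 3214 and 3285 bases in the wild type and 2344, 3389 and 1964 bases in the knockout, where replicate 2 lay within the wild-type range and the others far below it. Its fold was 2.75 by FPKM and 3.65 by counts. By counts over depth, 3 genes passed the limit of 1.6 in a genotype: Trpm4 and Pptc7 in the wild type (1.72 and 1.64) and Mfsd2a in the knockout (1.604). Applied to counts instead of FPKM, the limits gave 60 genes, 57 of them the same.

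**Figure D4:**
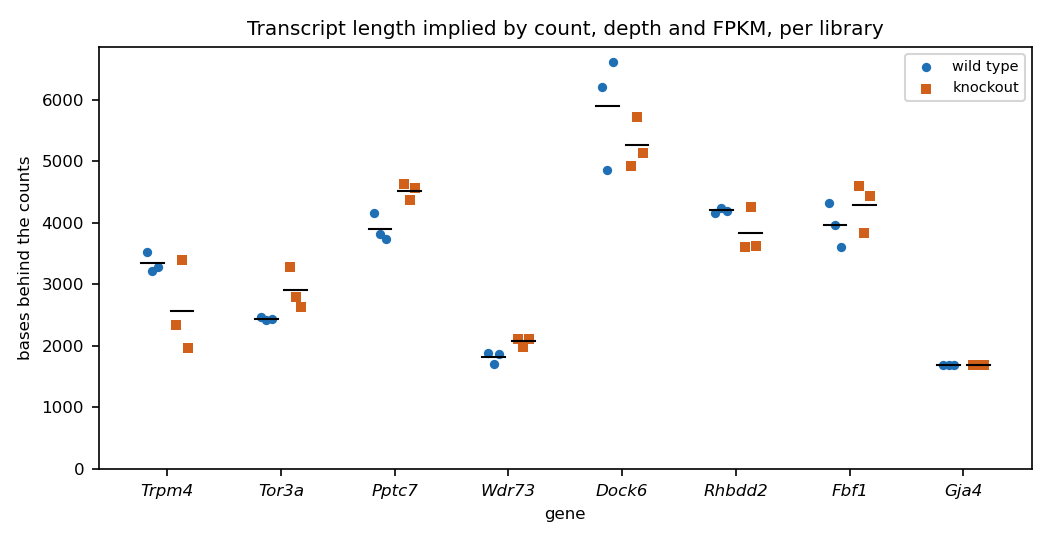
Transcript length in bases implied by count, depth and FPKM (y) in each wild-type library (blue circles) and knockout library (orange squares) for 7 genes whose mean length shifted and for Gja4, which has a single annotated transcript; black bars are group means. Tor3a, Pptc7 and Wdr73 show separate groups with the knockout longer, Trpm4, Dock6, Rhbdd2 and Fbf1 overlap, and Gja4 is flat. The flat line of Gja4 is largely set by the way depth was recovered.

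All 60 genes are protein coding, and they lie on 17 chromosomes. Chromosome 7 held 8 of them, 7 lower (among them Cdc42ep5, Abhd2, Slc25a22, Trpm4 and Tacc2) and 1 higher (Tmem86b), of 27 listed genes there. Within 500 kb of each other lay 2 pairs: Tmem120a and Rhbdd2 on chromosome 5, 89.0 kb apart and both lower, and Cdc42ep5 and Tmem86b, 463 kb apart and on opposite sides. Another coding gene overlaps 10 of the 60 genes (among them Tacc2, Adamts7, Pgm3, Dock6, Tmem189, Pptc7, Mrnip, Golt1a and Tiam2), so their counts are uncertain. Golt1a and Tmem189 overlap a coding gene on their own strand, where the use of strand, which is not given, would not separate the reads.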

How the data were processed

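RNA of 6 liver libraries (3 Usp28 knockout, 3 wild type) was compared, with groups and replicate numbers taken from the labels. Nothing there says the libraries of a group came from separate animals. Trizol was used for the RNA and a NEBNext Ultra kit for the libraries, per the labels' protocols. The submitters' processing notes name fastp 0.18.0, HISAT2, RSEM and StringTie 1.3.1; what each did, the build and annotation, the use of strand and how the deposited p-values were obtained were not given in the sources used here. For 389 selected genes the deposited table gives read counts and FPKM by library, and the authors' log2 fold change, p-value and FDR. In the deposited FPKM values a gene's count is divided by depth and transcript length, so depth was recovered from genes with at least 50 reads, an FPKM of at least 1 and a single known transcript length.

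Members were found by the FPKM limits and the list of names left out. Log2 fold changes and SE came from edgeR 4.0.16 (glmQLFit, R 4.3.3) over all listed genes, with the recovered depth as library size and no TMM; the fit was tested on simulated data. Genes and positions were matched to GENCODE M21 (60 of 60 by gene ID). The members and gene lists were chosen with earlier results of these data known. Genes with full values were, in each direction, the 10 with the largest log2 fold change, the 5 with the highest FPKM and the 5 with the smallest spread, with members of the fixed lists; others were named after their values were seen, and 1 member is counted but its own values are not reported here. Alternatives were other spread limits and FPKM minimums, counts in place of FPKM, TMM, DESeq2 1.42.0, a count filter of 10 reads in 3 libraries, pseudocounts of 0.1 and 1, a replicate block, and each library left out.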

Additional observations from a re-analysis of the deposited data

How the results depend on the processing

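The number of genes within the limits followed the limit: at 1.4 it was 25 (17 lower, 8 higher in the knockout) and at 1.8 it was 96 (60 lower, 36 higher). With 1 library left out, which leaves 2 values in its group to be compared, 73 to 180 genes met the limits, 45 to 118 lower and 23 to 62 higher; the highest of each came without wild-type replicate 3, and without wild-type replicate 2 there were 98. An FPKM minimum of 1 gave 58 genes, and none gave 62. The median log2 fold change of the lower genes, -1.17, was -1.05 with a pseudocount of 1, -1.32 to -1.13 with 1 library left out, -0.60 with TMM over the listed genes and -0.53 with DESeq2's own size factors. That of the higher genes, 1.14, was 1.0, 1.08 to 1.21, 1.73 and 1.79. Those 2 scalings assume that most listed genes do not differ, and they moved the median of all listed genes from -1.10 to -0.53 and -0.45; the medians of the members moved with it, and no member changed sign under any setting run. With a replicate block the medians were -1.20 and 1.14. The deviations of same-numbered libraries correlated at 0.01, 0.08 and -0.04 over the listed genes. Those of differently numbered libraries ran from -0.16 to 0.11. Whether same-numbered libraries belong together was not tested. The lowest count of a member in any library was 16 reads among the lower and 32 among the higher genes, so the spreads of the least abundant ones include counting error.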

Other observations

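The 8 genes left out by name met both spread limits and the FPKM minimum, so that 68 listed genes (17.5%) did. Among the genes lower in the knockout, 27.0% were within the limit in the wild type and 66.5% in the knockout; among the genes higher, 24.4% and 68.6% were. The limits apply to 3 libraries a group, and the FPKM of the listed genes were selected by the authors on the same contrast, so the levels of unlisted genes that are equally steady are not known here. Promoter counts cover 43 of the 60 genes, and the other 17 had no entry.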
